A study of Bos taurus with 24 samples.

Results

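RNA levels in dividing bovine muscle satellite cells grown in coculture with fibroblasts were set against those in the same cells grown in monoculture. The comparison takes 8 of the 24 libraries of the series, the 4 titled coculture and the 4 titled monoculture in proliferation, chosen by title alone, and covers all 11937 genes of the deposited count table. In both groups the cells were WT satellite cells of Bos taurus from musculus longissimus dorsi, a back muscle, pooled from 3 lines at passage 3. In coculture, fibroblasts of passage 10 were present in culture plates with 0.4 µm pores. Both groups were plated at 8000 cells/cm2 in high-glucose DMEM containing 20% fetal bovine serum and represent day 5 of growth, before the switch to 10% horse serum that starts differentiation. The other 16 libraries, from 24 h and 72 h after that switch, enter only the shared statistical model and the comparison between times. At 24 h and 72 h the cultures also differ in a label code and, in part or wholly, in sequencing lane. In every comparison between times below, time cannot be told apart from these. The age of the animals, the origin of the fibroblasts and the contents of the insert in monoculture wells are not stated in the labels, nor is it stated that replicates are separate cultures, so p-values measure only the variation among these libraries, which may be technical alone.

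Satellite cells are the stem cells of skeletal muscle. They lie against the fibre, divide as myoblasts after activation, then leave the cell cycle and fuse. Fibroblasts of the muscle secrete collagens, growth factors and cytokines that reach satellite cells through the matrix or the medium, and across a porous membrane the exchange is limited to what passes the pores. Dividing cells also need membrane lipid. When sterol in the endoplasmic reticulum is low, the escort protein SCAP carries SREBP transcription factors to the Golgi for cleavage, and the released factors switch on genes of cholesterol and fatty acid synthesis. INSIG proteins hold SCAP back when sterol is plentiful.

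Totals of counts were 11.5 to 34.96 M per library in coculture and 14.5 to 18.2 M in monoculture, and all 8 libraries carry the same sequencing lane in their names. The first principal component of these 8 libraries held 76.1% of the variance and separated the cultures. The share of counts from nuclear ribosomal RNA was 0.852% ± 0.146 for coculture and 1.32% ± 0.0832 for monoculture (SD, n = 4 each), and that of mitochondrial protein-coding transcripts was 1.65% ± 0.0412 for coculture and 2.05% ± 0.0502 for monoculture. For each of these shares the groups did not overlap (exact permutation test, two-sided p = 0.0286, the smallest that 4 against 4 allows). No gene of the table has fewer than 6 counts in any library, so silent genes are outside it.

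The labelled cell type was checked against markers. Of 8 myogenic markers, DES, ITGA7 and NCAM1 are listed, with a summed level of 157 to 174 CPM in coculture and 112 to 117 CPM in monoculture and 2 of the 3 called higher, while PAX7, MYF5, MYOD1, MYOG and CDH15, the defining genes of satellite cells and myoblasts, are not among the genes analysed here, so the label rests on few markers. Of 20 fibroblast and fibro-adipogenic markers 15 are listed, with a summed level of 3716 to 3929 CPM in coculture and 4224 to 4369 CPM in monoculture. Of 11 smooth muscle and pericyte markers 10 are listed, with a summed level of 20508 to 22415 CPM in coculture and 16834 to 17013 CPM in monoculture. Endothelial cells are represented by VWF alone of 8 markers and leukocytes by CD68 alone of 10, each under 2 CPM in every library. A longer endothelial list adds ERG and FLT1 and summed to 69.3 to 74.5 CPM in coculture and 76.7 to 85.6 CPM in monoculture. In bulk RNA, fewer cells of a type and less RNA per cell cannot be told apart.

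Coculture was accompanied by many small changes and few large ones. By edgeR's quasi-likelihood test, 7041 of 11937 genes were called, which means an adjusted p under 0.05, a share of 59.0%, with 3613 genes higher in coculture (30.3%) and 3428 lower (28.7%). With scaling by library totals alone, the split was 2670 higher and 4091 lower, since that scaling moves the median log2 fold change of all genes by -0.07. The 4 libraries of one culture lay entirely above the 4 of the other in 6323 genes (53.0%). A change of at least 0.5 on the log2 scale together with a call was found in 1339 genes (11.2%), 566 higher (4.74%) and 773 lower (6.48%). At least a 2-fold change was reached by 29 called genes that rose and 48 that fell. The shares of all genes given here are the ones to set beside every count of list members below. Below, genes said to have risen or fallen are those called, bracketed values are log2 fold changes of coculture over monoculture ± their standard error (SE), and levels are counts on a common library scale with TMM factors (CPM).

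**Figure D1:**
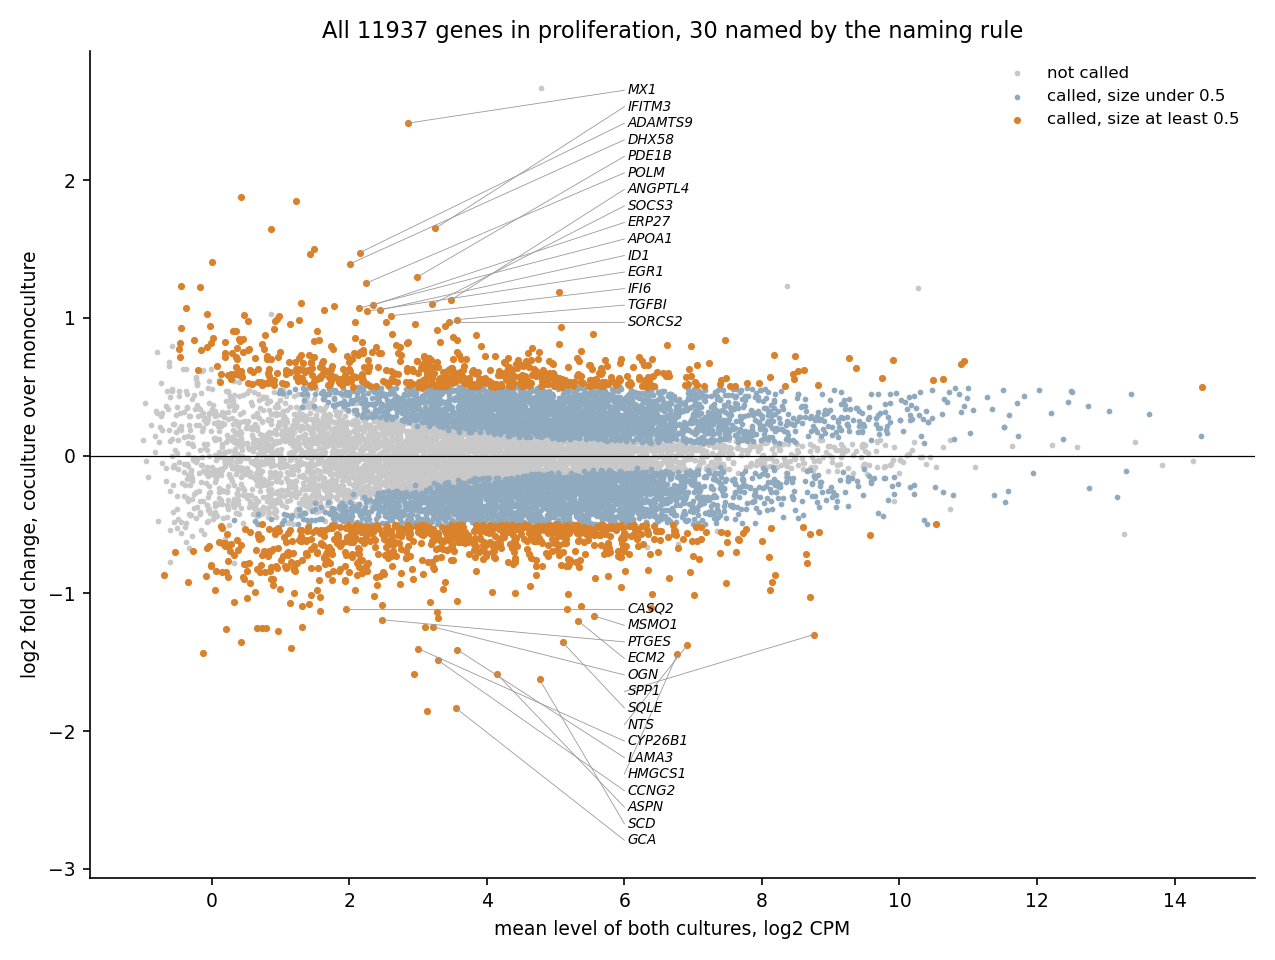
Log2 fold change of coculture over monoculture in proliferation (vertical axis) against the mean level of both cultures in log2 CPM (horizontal axis), 1 point per gene. Orange points are genes called with a size of at least 0.5, blue points are other called genes and grey points were not called. The most raised named gene is MX1 at 2.41 and the most lowered is GCA at -1.83.

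The direction of the change went with where a gene lies. Over 11919 nuclear genes, the Spearman correlation between the log2 fold change and the number of listed genes within 500 kb was 0.41, a description across genes measured in the same libraries, which are not independent replicates. In the quintile of genes with the sparsest surroundings the median log2 fold change was -0.17, with 12.1% of genes called higher and 46.0% called lower. In the densest quintile the median was 0.24, with 58.8% called higher and 6.84% called lower. Genes with a longer span tended to be lower in coculture, with a correlation of -0.25. The contrast appeared in every library, as the densest quintile minus the sparsest, relative to the mean of the 8 libraries, stood at 0.146 to 0.254 in the coculture libraries and at -0.221 to -0.167 in the monoculture libraries. At 24 h and 72 h the correlation with density had the opposite sign, -0.17 and -0.22. The part of gene density in the results below was not tested, but where a fit with density and span as offsets ends a call or moves a count or a named gene's log2 fold change by over 1.5 times, its value is given, marked as with offsets.

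**Figure D2:**
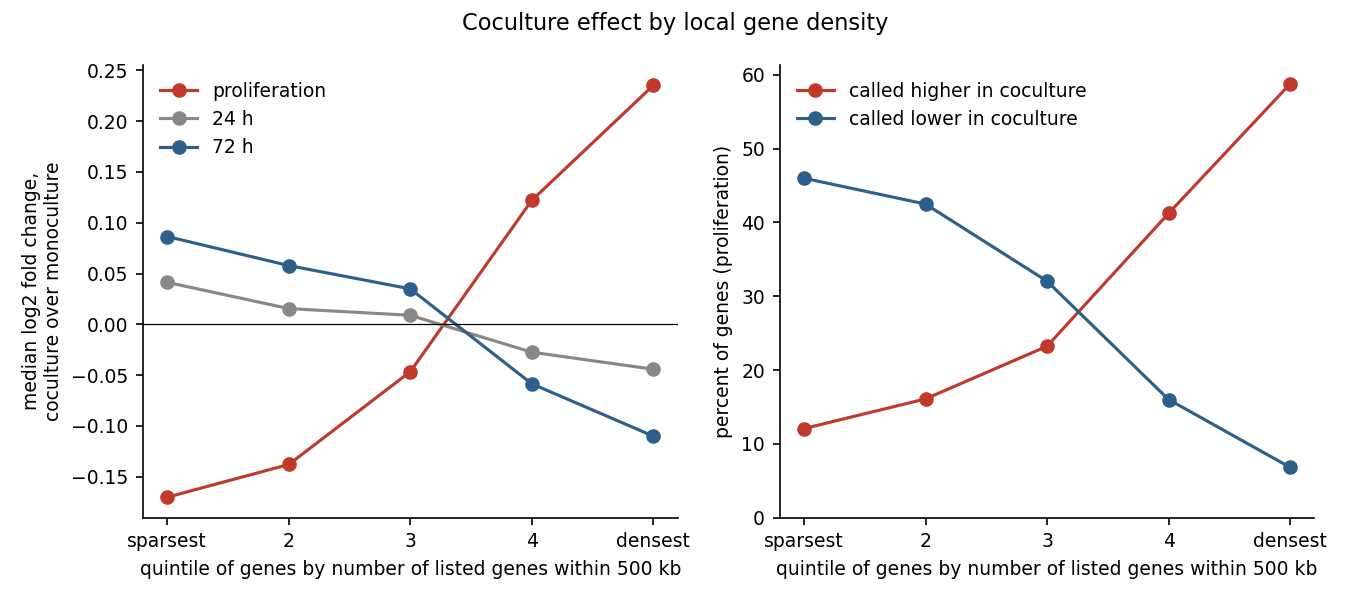
Left, median log2 fold change of coculture over monoculture (vertical axis) in quintiles of genes ordered by the number of listed genes within 500 kb, for proliferation, 24 h and 72 h. Right, percent of genes called higher or lower in coculture in proliferation in the same quintiles, where the share called higher is 12.1% in the sparsest quintile and 58.8% in the densest.

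Genes of cholesterol synthesis were lower in coculture through most of the pathway. Of 21 measured genes 17 fell and 0 rose, with 11 falls of at least 0.5, beside 28.7% and 6.48% of all genes, and the median was -0.51 beside 0.00 for all genes. HMGCS1, which condenses acetyl units into HMG-CoA, was measured at 60.1, 58.9, 58.7 and 57.3 CPM in coculture, against 149, 174, 155 and 161 CPM in monoculture. The coculture libraries lay within a few CPM of each other and far below every monoculture library (-1.44 ± 0.0507, adjusted p = 2.92e-19).

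The steps that build isoprenoids and squalene followed. IDI1, which isomerises the isoprenoid building block, averaged 15.8 ± 1.28 CPM in coculture and 26.6 ± 0.872 CPM in monoculture (SD, n = 4 each, log2 -0.74), and FDFT1, which joins farnesyl units into squalene, averaged 22.2 ± 1.403 CPM in coculture and 36.9 ± 2.79 CPM in monoculture (log2 -0.73). SQLE, which oxidises squalene, was at 19.6, 19.3, 19.1 and 19.2 CPM in coculture, against 47.9, 52.8, 48.9 and 47.9 CPM in monoculture. Every coculture library was lower than every monoculture library by more than the spread within either group (-1.36 ± 0.0596, adjusted p = 6.17e-17).

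Among enzymes that trim lanosterol, CYP51A1, the lanosterol demethylase, was at 31.2, 34.2, 36.1 and 32.8 CPM in coculture, against 63.96, 64.1, 61.2 and 58.8 CPM in monoculture (-0.89 ± 0.0558), and MSMO1, the sterol methyl oxidase, at 27.01, 28.5, 31.3 and 29.4 CPM in coculture, against 67.5, 71.8, 61.3 and 58.8 CPM in monoculture (-1.16 ± 0.0583). HSD17B7, a later ketosteroid reductase of the pathway, had a mean of 8.03 ± 1.16 CPM in coculture and 13.3 ± 1.05 CPM in monoculture (log2 -0.69). For each of the 3 the groups did not overlap. Within the pathway the size was uneven, running from -1.44 to 0.06, and the 4 genes not called were PMVK, TM7SF2, MVK and MVD, named here after their values were seen because they are the whole remainder. The fit with density and span offsets called 15 lower and 0 higher.

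The regulators of the pathway changed less evenly. Of 21 genes for sterol sensing, uptake and export, 7 rose and 8 fell, 4 and 8 with density and span offsets and 3 higher with library totals alone, and the median was 0.09. INSIG1, the sterol-sensing protein that retains SCAP and is itself an SREBP target, was at 15.3, 13.1, 13.8 and 14.6 CPM in coculture, against 26.8, 29.7, 28.3 and 27.8 CPM in monoculture. The 4 coculture libraries were all near 14.2 CPM, their mean, and all below the monoculture libraries (-0.998 ± 0.0931, adjusted p = 4.06e-10). Its relative INSIG2 was also lower (-0.50, or -0.32 with offsets), as was STARD4, a cytosolic sterol carrier (-0.68 ± 0.101).

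The transcription factors themselves moved little. SREBF2, which encodes the main driver of cholesterol genes, averaged 114 ± 5.75 CPM in coculture and 125 ± 3.93 CPM in monoculture (log2 -0.14, adjusted p = 0.0136, and -0.24 with offsets) and was not called without replicate 3 of coculture (-0.11, adjusted p = 0.0684) or replicate 4 of monoculture (-0.12, adjusted p = 0.0522). The related SREBF1 averaged 50.2 ± 3.14 CPM in coculture and 55.3 ± 3.84 CPM in monoculture and was not called (log2 -0.14, adjusted p = 0.0977), although it was called lower with density and span offsets (-0.32), with library totals alone (-0.21) and with proliferation libraries alone (-0.15). SCAP, the escort, rose (0.39 ± 0.0412), and so did NR1H2, which encodes the oxysterol receptor LXR-beta (0.36, or 0.13 with offsets). APOE, a lipoprotein component, fell (-0.42 ± 0.0995, or -0.65 with offsets).

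Fatty acid genes changed in both directions. Of 25 measured, 10 fell and 6 rose, beside 28.7% and 30.3% of all genes, with 5 falls and 0 rises of at least 0.5. SCD, which puts the first double bond into saturated fatty acids, was at 15.9, 11.96, 13.3 and 12.6 CPM in coculture, against 41.1, 44.6, 35.03 and 43.2 CPM in monoculture. The highest coculture library was far below the lowest monoculture library (-1.63 ± 0.09599, adjusted p = 7.23e-14). FADS1, a desaturase of polyunsaturated fatty acids, was at 13.03, 12.95, 12.98 and 12.2 CPM in coculture, against 19.001, 20.9, 21.2 and 22.1 CPM in monoculture (-0.70 ± 0.0758), ELOVL6, which lengthens palmitate, averaged 13.3 ± 0.858 CPM in coculture and 20.8 ± 1.32 CPM in monoculture (-0.64 ± 0.0861), and ACSL3, which activates long-chain fatty acids, averaged 48.8 ± 2.701 CPM in coculture and 78.7 ± 3.54 CPM in monoculture (-0.69 ± 0.0561). For each of these the cultures did not overlap.

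Other enzymes of the list were higher in coculture or not called. Among the 6 genes that rose, ACACB, an acetyl-CoA carboxylase, averaged 18.7 ± 1.45 CPM in coculture and 14.9 ± 1.42 CPM in monoculture (0.34 ± 0.0918) and ELOVL1, which lengthens very long chains, averaged 126 ± 5.88 CPM in coculture and 107 ± 7.68 CPM in monoculture (0.23 ± 0.0574). FASN, the fatty acid synthase, was not called and is shown in the plot of both pathways. At 24 h 5 cholesterol genes rose and 1 fell in coculture, and at 72 h 7 rose and 2 fell. Of all genes, 11.5% were called higher and 12.2% lower at 24 h, and 25.1% higher and 25.4% lower at 72 h. The coculture effect was lower in proliferation than at 24 h in 16 of 21 genes and higher in 0, by the test of the difference, beside 50.5% of all genes called in either direction.

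**Figure D3:**
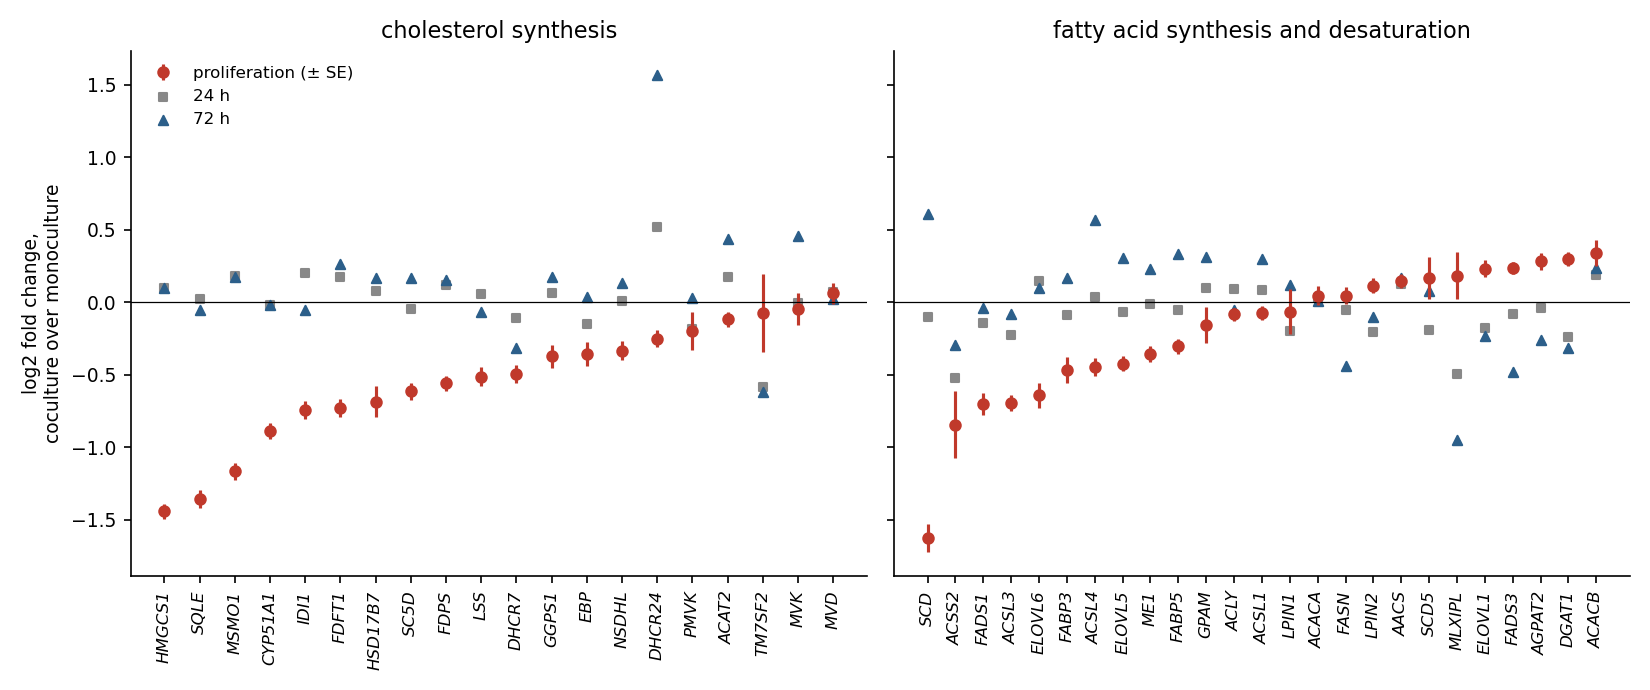
Log2 fold change of coculture over monoculture (vertical axis) for the genes reported here of cholesterol synthesis (left) and of fatty acid synthesis and desaturation (right), in proliferation (red circles, bars are SE), at 24 h (grey squares) and at 72 h (blue triangles). In proliferation HMGCS1 is at -1.44 and SCD at -1.63, while the 24 h values of the same genes are 0.10 and -0.10.

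Interferon response genes were more often raised than lowered. Interferons signal through receptors and JAK kinases to transcription factors, IRF9 among them, that switch on antiviral genes. Of 48 measured genes 24 rose and 6 fell, beside 30.3% and 28.7% of all genes. The list held 12 rises and 0 falls of at least 0.5, and its median was 0.23. MX1, a GTPase that blocks viral replication, was at 12.2, 12.1, 12.98 and 11.2 CPM in coculture, against 2.79, 1.99, 1.95 and 2.402 CPM in monoculture. The coculture libraries were all well above the highest monoculture library (2.41 ± 0.257, adjusted p = 4.48e-09). DHX58, a regulator of cytosolic RNA sensing, was at 5.64, 5.14, 7.75 and 5.01 CPM in coculture, against 2.79, 1.99, 2.16 and 1.86 CPM in monoculture, with replicate 3 of coculture the highest and no overlap (1.39 ± 0.183, adjusted p = 1.86e-07). IFI6, an interferon-induced membrane protein, was at 7.503, 6.27, 10.9 and 8.41 CPM in coculture, against 3.54, 3.84, 4.22 and 4.02 CPM in monoculture and also did not overlap (1.01 ± 0.198).

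IFITM3, a membrane protein that restricts virus entry, is a symbol shared by more than 1 gene in the table, so its counts may be split between near-identical copies. The copy ENSBTAG00000019018 was at 12.5, 13.2, 19.3 and 12.995 CPM in coculture, against 3.602, 4.89, 4.38 and 5.15 CPM in monoculture, with replicate 3 of coculture the highest and the groups apart (1.65 ± 0.175). The more abundant copy ENSBTAG00000019015 rose less. It averaged 95.9 ± 5.24 CPM in coculture and 60.7 ± 6.03 CPM in monoculture, also without overlap (0.66 ± 0.0606). Of the components that pass on the signal, IRF9 averaged 19.2 ± 1.14 CPM in coculture and 11.1 ± 1.15 CPM in monoculture (0.80 ± 0.0877) and IRF7, which amplifies interferon production, averaged 3.32 ± 0.3501 CPM in coculture and 2.105 ± 0.255 CPM in monoculture (0.68 ± 0.1799). The enzymes of the ubiquitin-like modifier ISG15 moved with them, as UBA7, its activating enzyme, averaged 42.3 ± 1.75 CPM in coculture and 24.1 ± 1.299 CPM in monoculture (0.81 ± 0.08701) and USP18, which removes it and damps receptor signalling, averaged 8.102 ± 1.24 CPM in coculture and 4.67 ± 0.813 CPM in monoculture (0.80 ± 0.188).

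Among the 6 members that fell was IFNAR1, a chain of the type I interferon receptor (-0.34 ± 0.0618), beside the RNA-binding IFIT5 (-0.41 ± 0.0655) and the ADP-ribosyltransferase PARP14 (-0.30 ± 0.0543). The interferon rise was smaller in proliferation than at 72 h, with a list median of 0.24 at 24 h and 0.92 at 72 h. By the test of the difference, the coculture effect was below that at 72 h in 37 of 48 genes and above it in 3. Of all genes, 62.3% were called in either direction by that test. At 72 h the cultures also lie on different lanes and carry different label codes.

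Of 49 DNA replication genes 24 rose and 7 fell, beside 30.3% and 28.7% of all genes. Their list held 9 rises and 0 falls of at least 0.5 and had a median of 0.23. MCM5, a subunit of the replicative helicase, was at 61.05, 57.8, 65.05 and 57.8 CPM in coculture, against 32.97, 32.6, 33.2 and 31.9 CPM in monoculture. The lowest coculture library was well above the highest monoculture library (0.88 ± 0.0578, adjusted p = 6.68e-13). Of the other helicase subunits MCM3 averaged 51.99 ± 2.29 CPM in coculture and 30.8 ± 1.28 CPM in monoculture (0.76 ± 0.0684), and MCM2 and MCM7 rose by 0.70 and 0.52 (0.29 with offsets). CDT1, which loads the helicase at origins, averaged 14.8 ± 1.37 CPM in coculture and 8.904 ± 0.8298 CPM in monoculture (0.75 ± 0.102), E2F1, the transcription factor of the G1/S transition, averaged 23.5 ± 2.39 CPM in coculture and 14.8 ± 0.966 CPM in monoculture (0.67 ± 0.09501), and the polymerase subunit POLD1 (0.59) and the thymidine kinase TK1 (0.53) also rose.

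Among the 7 replication genes that fell, the single-strand binding subunit RPA1 averaged 126 ± 1.11 CPM in coculture and 159.8 ± 3.36 CPM in monoculture (-0.35 ± 0.0363). Of 40 mitosis genes 15 rose and 10 fell, a split of 12 and 16 with library totals alone and of 15 and 6 with density and span offsets, and the median was 0.02. PLK1, a mitotic kinase, was at 37.8, 37.5, 38.8 and 37.5 CPM in coculture, against 24.2, 25.6, 21.4 and 23.97 CPM in monoculture (0.67 ± 0.0693), and CDC20, an activator of the anaphase-promoting complex, averaged 38.2 ± 1.53 CPM in coculture and 24.1 ± 0.788 CPM in monoculture (0.66 ± 0.0802). The groups did not overlap for either gene. HMMR (-0.36, or -0.20 with offsets) and the kinesin CENPE (-0.35, or -0.18 with offsets), both spindle proteins, fell. MKI67, a marker of dividing cells, averaged 137 ± 14.6 CPM in coculture and 108 ± 3.48 CPM in monoculture (0.34 ± 0.0791), and the G1 cyclin CCND1 averaged 57.9 ± 1.48 CPM in coculture and 44.8 ± 1.29 CPM in monoculture (0.37 ± 0.0761).

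Genes of cell cycle exit went the other way. Of 37 genes of arrest and of the FOXO response, 21 fell and 6 rose, beside 28.7% and 30.3% of all genes. There were 8 falls and 2 rises of at least 0.5, or 6 and 0 with density and span offsets, and the median was -0.26. CCNG2, an atypical cyclin linked to arrest, was at 4.86, 5.06, 5.88 and 4.95 CPM in coculture, against 13.2, 17.6, 12.7 and 14.1 CPM in monoculture. No coculture library reached the level of any monoculture library (-1.49 ± 0.109, adjusted p = 5.27e-12). Its relative CCNG1 was at 152, 145, 155 and 150.5 CPM in coculture, against 247, 253, 231 and 244 CPM in monoculture (-0.70 ± 0.0446), and MDM2, the ubiquitin ligase of p53 and a p53 target like CCNG1, was at 42.98, 48.01, 44.4 and 50.97 CPM in coculture, against 78.1, 79.7, 78.6 and 74.4 CPM in monoculture (-0.73 ± 0.0617). Both were lower in every coculture library. The inhibitor CDKN1A, also a p53 target, averaged 164 ± 2.72 CPM in coculture and 226 ± 10.6 CPM in monoculture (-0.46 ± 0.0535), and CDKN1B averaged 19.5 ± 1.52 CPM in coculture and 23.4 ± 1.56 CPM in monoculture (-0.25 ± 0.0745). TOB1, an antiproliferative protein, fell (-0.56 ± 0.0803), whereas the thioredoxin-binding TXNIP (0.52) and the stress-induced GADD45B (0.50, or 0.30 with offsets) rose.

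**Figure D4:**
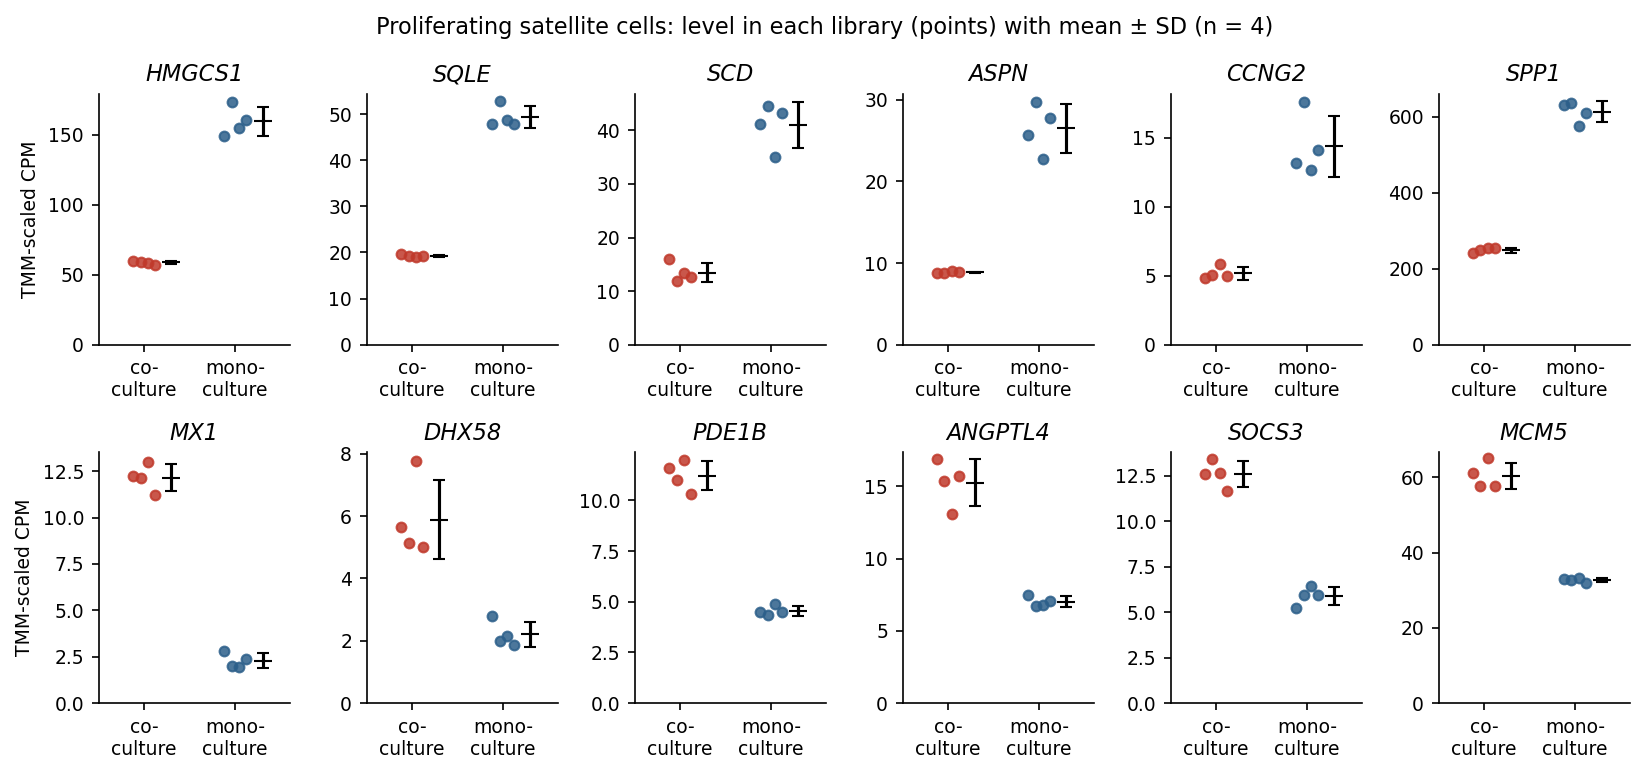
Level in TMM-scaled CPM (vertical axis, starting at 0) of 12 genes in each coculture library (red, left) and each monoculture library (blue, right), with mean and SD (n = 4 each) beside the points. In each panel the 4 coculture libraries lie apart from the 4 monoculture libraries, below them for the upper genes and above them for the lower genes.

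Collagen genes were more often raised than lowered, while several small proteoglycans were lower in coculture. Of 21 collagen genes 13 rose and 2 fell, beside 30.3% and 28.7% of all genes. Their median was 0.25, and with density and span offsets 13 rose and 0 fell. COL6A3, a chain of the collagen VI that surrounds satellite cells, was at 2639, 2201, 2335 and 2521 CPM in coculture, against 1568, 1449, 1557 and 1449.9 CPM in monoculture. The groups did not overlap (0.69 ± 0.0831, adjusted p = 4.57e-08). COL18A1, a basement membrane collagen, averaged 1182 ± 43.5 CPM in coculture and 731 ± 16.7 CPM in monoculture (0.69 ± 0.121), COL4A2, of the basement membrane network, averaged 2089 ± 85.7 CPM in coculture and 1490.2 ± 40.6 CPM in monoculture (0.49 ± 0.0645), and COL1A1, the main chain of fibrillar collagen I, averaged 25265 ± 336 CPM in coculture and 17862 ± 1017 CPM in monoculture (0.50 ± 0.0389, or 0.33 with offsets). COL11A1 (-0.27) and COL8A1 (-0.16) fell, and with density and span offsets neither was called and COL8A1 took the opposite sign (0.01). By the test of the difference, the coculture effect was higher in proliferation than at 24 h in 17 of 21 collagen genes and lower in 1. Of all genes, 50.5% were called in either direction by that test. The list median was -0.12 at 24 h and -0.21 at 72 h.

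Of 45 laminins, proteoglycans and matrix glycoproteins 21 rose and 7 fell, or 18 and 12 with library totals alone, and 6 of the 7 falls were of at least 0.5. ASPN, a small leucine-rich proteoglycan that binds collagen and TGF-beta, was at 8.76, 8.81, 8.98 and 8.88 CPM in coculture, against 25.7, 29.7, 22.8 and 27.8 CPM in monoculture. The coculture libraries were almost equal and lay below every monoculture library (-1.58 ± 0.0879, adjusted p = 1.85e-14). OGN, of the same family, was at 4.502, 5.17, 6.37 and 6.26 CPM in coculture, against 11.8, 13.8, 12.4 and 13.8 CPM in monoculture (-1.24 ± 0.139), and ECM2, a related matrix protein, at 23.7, 22.2, 26.4 and 25.9 CPM in coculture, against 51.9, 62.6, 50.2 and 58.1 CPM in monoculture (-1.20 ± 0.105). Neither overlapped between the cultures.

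These genes are neighbours. The deposited table places OGN on chromosome 8 at 84019267 to 84034855, OMD at 84037954 to 84052835, ASPN at 84067214 to 84092633 and ECM2 at 84108463 to 84148223, all within the span of CENPP at 83951223 to 84187164, in a genome build that the sources used here do not name. OMD, a further proteoglycan of the family, chosen after its values were seen, averaged 1.56 CPM in coculture and 3.04 CPM in monoculture (-0.999 ± 0.2001, adjusted p = 9.18e-05). CENPP, a kinetochore gene that overlaps all 4, averaged 6.02 CPM in coculture and 5.84 CPM in monoculture and was not called (0.05 ± 0.132, adjusted p = 0.782), and reads in the shared span may be divided between the genes by the counting. NOL8 and IPPK on the flanks fell by 0.50 and 0.26 on the log2 scale. At 24 h the values were 0.00 for ASPN, 0.07 for ECM2, 0.15 for OGN and 0.15 for OMD, none of them called. At 72 h ASPN (-0.57) and OGN (-0.52) were called lower in coculture, while ECM2 (-0.13) and OMD (-0.11) were not called.

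SPP1, which encodes osteopontin, a secreted integrin ligand, was at 239.9, 249, 254 and 254 CPM in coculture, against 630.5, 637, 575 and 609 CPM in monoculture, without overlap (-1.30 ± 0.0537). LAMA3, a laminin chain of epithelial basement membranes, was at 6.12, 6.11, 7.92 and 6.26 CPM in coculture, against 17.01, 18.3, 16.1 and 17.4 CPM in monoculture, again without overlap (-1.41 ± 0.119), and LUM, another leucine-rich proteoglycan, averaged 736 ± 24.3 CPM in coculture and 999 ± 41.8 CPM in monoculture (-0.44 ± 0.112). TNXB, the matrix glycoprotein tenascin-X, averaged 52.9 ± 6.22 CPM in coculture and 114 ± 4.42 CPM in monoculture (-1.11 ± 0.101). In the other direction, TGFBI, a TGF-beta-induced adhesion protein, was at 16.7, 15.5, 16.1 and 15.1 CPM in coculture, against 8.01, 9.13, 7.597 and 7.11 CPM in monoculture (0.99 ± 0.107), PODN, a leucine-rich proteoglycan, averaged 10.04 ± 0.218 CPM in coculture and 6.49 ± 0.516 CPM in monoculture (0.63 ± 0.107), the elastic fibre protein FBLN2 rose by 0.48 and the matricellular THBS1 by 0.45.

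Of 44 matrix remodelling genes 28 rose and 9 fell, beside 30.3% and 28.7% of all genes, with a median of 0.29. ADAMTS9, a protease that cleaves versican, was at 6.18, 6.005, 5.96 and 7.99 CPM in coculture, against 2.73, 2.14, 2.27 and 2.25 CPM in monoculture. Replicate 4 of coculture was the highest, and the groups did not overlap (1.47 ± 0.179, adjusted p = 4.73e-08). PLAUR, the receptor that holds urokinase at the cell surface, was at 41.96, 43.6, 45.95 and 45.8 CPM in coculture, against 21.4, 22.04, 25.2 and 23.7 CPM in monoculture (0.94 ± 0.0514), and the metalloproteinase inhibitor TIMP1 averaged 1704 ± 115 CPM in coculture and 1166 ± 14.3 CPM in monoculture (0.55 ± 0.0573). The inhibitor TIMP3 averaged 609.8 ± 11.97 CPM in coculture and 910.2 ± 28.4 CPM in monoculture and fell (-0.58 ± 0.0569), as did ADAMTS5, an aggrecanase (-0.77 ± 0.108), and the collagen-degrading cathepsin CTSK (-0.50 ± 0.0482).

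**Figure D5:**
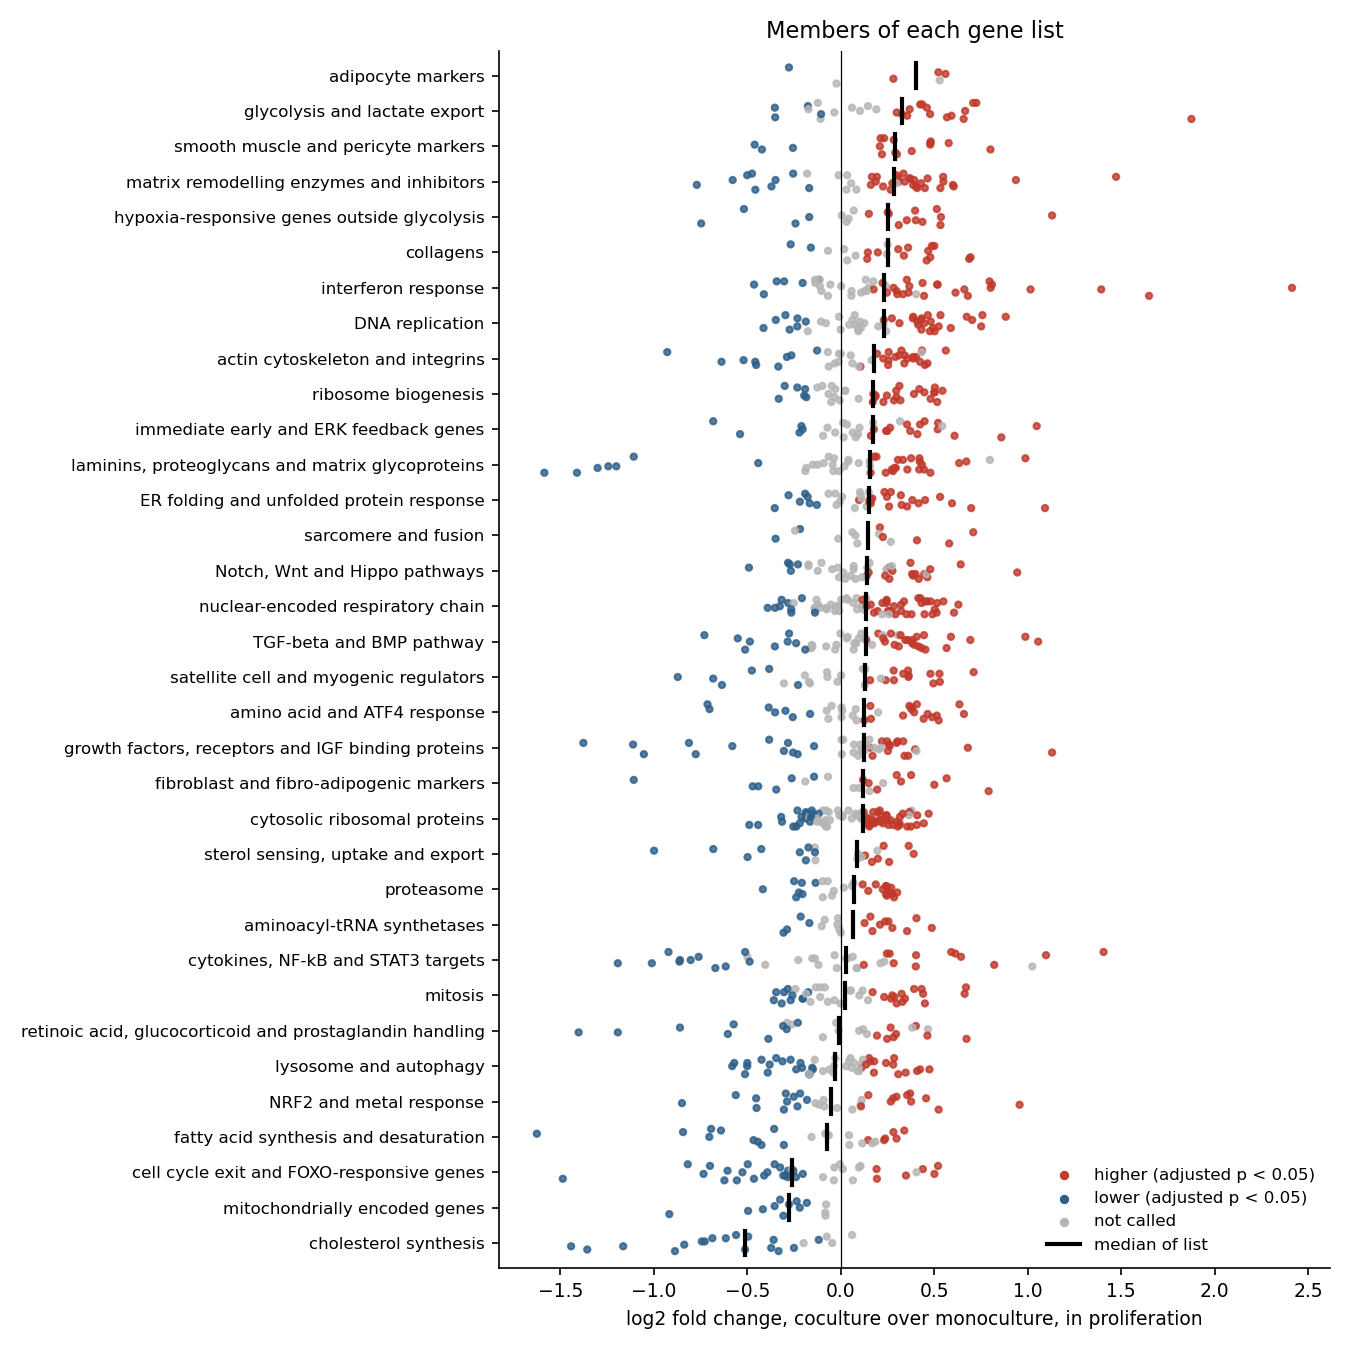
Log2 fold change of coculture over monoculture in proliferation (horizontal axis) for each measured member of the gene lists with at least 6 measured members, in red where called higher, blue where called lower and grey where not called, with black bars at list medians. The lowest median is that of cholesterol synthesis at -0.51.

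Of 51 TGF-beta and BMP pathway genes 23 rose and 9 fell. ID1, an immediate BMP target that blocks myogenic factors, was at 7.86, 7.78, 7.02 and 6.68 CPM in coculture, against 2.79, 3.69, 3.53 and 4.07 CPM in monoculture. The lowest coculture library was above the highest monoculture library (1.06 ± 0.163, adjusted p = 2.58e-06). The ligand TGFB1 was at 67.3, 68.2, 61.7 and 64.1 CPM in coculture, against 37.2, 39.6, 41.04 and 43.9 CPM in monoculture (0.69 ± 0.0546), and the coreceptor ENG averaged 213 ± 12.2 CPM in coculture and 144 ± 5.83 CPM in monoculture (0.57 ± 0.05604). The BMP receptors BMPR1A (-0.51) and BMPR2 (-0.55), the inhibitory cofactor SKIL (-0.49) and the stress-induced ligand GDF15 (-0.73 ± 0.111) fell.

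Of 43 growth factor and receptor genes 15 rose and 12 fell, beside 30.3% and 28.7% of all genes. Falls of at least 0.5 numbered 6 and rises 2, beside 6.48% and 4.74% of all genes. FGF2, a mitogen of satellite cells, was at 23.8, 21.7, 22.4 and 22.8 CPM in coculture, against 55.1, 46.2, 46.9 and 47.4 CPM in monoculture. Replicate 1 of monoculture was the highest and the groups did not overlap (-1.11 ± 0.0747, adjusted p = 1.08e-12). FGF10, a growth factor of mesenchymal cells, was at 7.38, 8.72, 6.53 and 7.75 CPM in coculture, against 15.9, 16.9, 13.5 and 18.3 CPM in monoculture, also without overlap (-1.05 ± 0.135), and NTS, the precursor of the peptide neurotensin, at 65.01, 76.3, 66.3 and 59.9 CPM in coculture, against 163, 201, 151 and 182 CPM in monoculture (-1.38 ± 0.145). The binding protein IGFBP5, which holds insulin-like growth factors, averaged 3.19 ± 0.324 CPM in coculture and 5.63 ± 0.812 CPM in monoculture (-0.81 ± 0.162). The heparin-binding factor MDK averaged 10.6 ± 1.05 CPM in coculture and 6.51 ± 1.48 CPM in monoculture (0.68 ± 0.141), VEGFA, the angiogenic factor, rose by 0.40 (0.23 with offsets), and ANGPTL4, a secreted inhibitor of lipoprotein lipase, was at 16.9, 15.4, 13.1 and 15.7 CPM in coculture, against 7.51, 6.73, 6.81 and 7.06 CPM in monoculture, apart in all libraries (1.13 ± 0.0897).

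Cytokine genes were called in both directions, and 41.0% were called with a size of at least 0.5, beside 11.2% of all genes. Of 39 cytokines and targets of NF-kB and STAT3, 12 rose and 11 fell, or 11 and 13 with library totals alone and 8 and 11 with density and span offsets, with 6 rises and 10 falls of at least 0.5. Over all genes, 30.3% rose and 28.7% fell, and 4.74% rose and 6.48% fell by at least 0.5. A pair of feedback inhibitors of JAK-STAT signalling rose, SOCS3 at 12.6, 13.4, 12.7 and 11.6 CPM in coculture, against 5.22, 5.93, 6.44 and 5.93 CPM in monoculture (1.10 ± 0.0981) and SOCS2 at 10.6, 12.4, 13.5 and 14.4 CPM in coculture, against 6.71, 6.63, 8.23 and 7.11 CPM in monoculture (0.82 ± 0.109), both without overlap, together with the NF-kB cofactor BCL3 (0.64 ± 0.0957). The chemokine CXCL5 was at 87.8, 86.01, 93.7 and 73.7 CPM in coculture, against 163, 202, 158 and 163 CPM in monoculture. It was lower in every coculture library (-1.01 ± 0.159), as was BIRC3, an inhibitor of apoptosis induced by NF-kB, at a mean of 25.7 ± 0.769 CPM in coculture and 45.01 ± 3.93 CPM in monoculture (-0.80 ± 0.0909). PTGES, which makes prostaglandin E2, was at 3.001, 3.53, 3.999 and 3.04 CPM in coculture, against 6.58, 8.38, 7.44 and 8.43 CPM in monoculture (-1.19 ± 0.156), and PTGER4, a receptor of that prostaglandin counted in another list, averaged 9.49 ± 1.59 CPM in coculture and 14.6 ± 0.861 CPM in monoculture (-0.60 ± 0.08896).

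Of 33 immediate early and feedback genes of growth factor signalling 15 rose and 5 fell, or 16 and 3 with density and span offsets. EGR1, a zinc finger factor induced by growth factors, was at 6.78, 5.98, 6.69 and 6.62 CPM in coculture, against 2.48, 3.09, 3.17 and 3.58 CPM in monoculture (1.05 ± 0.159), and the orphan receptor NR4A1 averaged 14.7 ± 1.25 CPM in coculture and 8.04 ± 0.494 CPM in monoculture (0.86 ± 0.105). EGR1 did not overlap between the cultures. Of the inhibitors of receptor tyrosine kinase signalling, SPRED1 averaged 13.9 ± 2.25 CPM in coculture and 19.8 ± 1.11 CPM in monoculture (-0.54 ± 0.0872, or -0.34 with offsets) and SPRY1, which keeps satellite cells able to return to quiescence, averaged 5.09 ± 0.783 CPM in coculture and 8.42 ± 1.01 CPM in monoculture (-0.68 ± 0.111), both lower. Of 40 genes in the Notch, Wnt and Hippo pathways 16 rose and 5 fell, or 11 and 8 with library totals alone and 22 and 3 with density and span offsets. WNT2B averaged 13.8 ± 0.7398 CPM in coculture and 7.23 ± 0.737 CPM in monoculture (0.94 ± 0.0872), WNT5B averaged 44.4 ± 2.22 CPM in coculture and 28.5 ± 1.98 CPM in monoculture (0.64 ± 0.0756), and NOTCH3, a receptor of satellite cells and mural cells, averaged 241 ± 10.7 CPM in coculture and 173 ± 6.205 CPM in monoculture (0.48 ± 0.0854). LATS1, the kinase that restrains YAP1, fell (-0.49), and YAP1 itself fell by 0.28 on the log2 scale (-0.13 with offsets).

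Glycolysis genes were more often raised than lowered. Of 27 measured 15 rose and 4 fell, beside 30.3% and 28.7% of all genes. The list held 7 rises and 0 falls of at least 0.5 and had a median of 0.33. GAPDH, often taken as an unchanging control, was at 2355, 2364, 2352 and 2283 CPM in coculture, against 1447, 1423, 1499 and 1529 CPM in monoculture. Every coculture library was above every monoculture library (0.67 ± 0.0416, adjusted p = 2.62e-13, and 0.43 with offsets). ALDOA, the aldolase, averaged 763 ± 19.9 CPM in coculture and 467 ± 10.2 CPM in monoculture (0.71 ± 0.039997, or 0.46 with offsets), TPI1, the triose phosphate isomerase, averaged 445 ± 11.03 CPM in coculture and 269 ± 3.29 CPM in monoculture (0.73 ± 0.0527), and PFKL, a phosphofructokinase, averaged 163 ± 4.81 CPM in coculture and 103 ± 3.29 CPM in monoculture (0.66 ± 0.0583). LDHA, which makes lactate, is a symbol shared by more than 1 gene in the table. Its copy ENSBTAG00000008683 was lower (-0.18 ± 0.0492), as was the monocarboxylate transporter SLC16A1 (-0.35 ± 0.0347).

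Of 20 further hypoxia-responsive genes 12 rose and 4 fell. The lipid droplet protein PLIN2 averaged 71.4 ± 1.58 CPM in coculture and 49.2 ± 1.08 CPM in monoculture (0.54 ± 0.0483) and STC2, a secreted glycoprotein, averaged 90.8 ± 5.896 CPM in coculture and 63.5 ± 1.48 CPM in monoculture (0.51 ± 0.0675). HIF1A, the oxygen-regulated factor itself, averaged 319 ± 5.54 CPM in coculture and 456 ± 12.04 CPM in monoculture and fell (-0.52 ± 0.0516, or -0.34 with offsets), and EGLN3, an oxygen sensor and HIF target, fell (-0.75 ± 0.0874). Of the glycolysis genes 18 rose and 0 fell at 24 h, beside 11.5% and 12.2% of all genes, and 15 rose and 1 fell at 72 h, beside 25.1% and 25.4%.

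Of 33 genes of amino acid supply and the ATF4 response 16 rose and 7 fell. The pseudokinase TRIB3 averaged 55.2 ± 2.07 CPM in coculture and 34.9 ± 1.19 CPM in monoculture (0.66 ± 0.0505) and the leucine sensor SESN2 averaged 61.3 ± 2.91 CPM in coculture and 39.4 ± 1.15 CPM in monoculture (0.63 ± 0.04897), whereas the amino acid transporter SLC38A2 was at 309, 303, 305 and 292 CPM in coculture, against 505, 541, 457 and 479 CPM in monoculture and was lower without overlap (-0.71 ± 0.0608). Of 37 genes for folding in the endoplasmic reticulum 19 rose and 7 fell. ERP27, a protein of the disulfide isomerase family, was at 6.72, 8.698, 6.53 and 5.604 CPM in coculture, against 2.79, 3.94, 2.59 and 3.82 CPM in monoculture (1.09 ± 0.151), SDF2L1, a cochaperone, averaged 15.2 ± 0.802 CPM in coculture and 9.41 ± 1.17 CPM in monoculture (0.70 ± 0.0771), and CREB3L1, a factor that raises collagen secretion, averaged 420.0 ± 6.27 CPM in coculture and 278 ± 13.96 CPM in monoculture (0.59 ± 0.0556). DNAJB9 (-0.35) and the stress sensor ATF6 (-0.28, or -0.14 with offsets) fell.

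Muscle genes in the table were few. Of 31 satellite cell and myogenic regulators 13 rose and 6 fell. EYA2, a cofactor of homeobox proteins, averaged 24.6 ± 1.51 CPM in coculture and 15.01 ± 1.13 CPM in monoculture (0.71 ± 0.0718), MSC, which represses myogenic factors, averaged 19.8 ± 1.16 CPM in coculture and 13.8 ± 1.001 CPM in monoculture (0.53 ± 0.0859), and TEAD4 averaged 26.9 ± 0.3796 CPM in coculture and 19.03 ± 1.36 CPM in monoculture (0.50 ± 0.0562). HDAC9, a deacetylase that restrains MEF2, was at 37.1, 36.9, 38.03 and 41.6 CPM in coculture, against 74.1, 68.7, 71.4 and 66.5 CPM in monoculture, lower in each coculture library (-0.87 ± 0.09798), and MEF2A itself fell (-0.48 ± 0.0523, or -0.31 with offsets). Of 51 symbols of the sarcomere and of fusion 14 are listed, 5 of which rose and 2 fell. CKB, a creatine kinase, averaged 49.5 ± 0.251 CPM in coculture and 33.1 ± 2.75 CPM in monoculture (0.58 ± 0.0771) and the tropomyosin TPM2 averaged 3142 ± 146 CPM in coculture and 2718 ± 59.7 CPM in monoculture (0.21 ± 0.0486). CDON, a surface receptor that promotes myogenic differentiation, averaged 9.601 ± 1.25 CPM in coculture and 12.4 ± 0.778 CPM in monoculture (-0.35 ± 0.0824) and MYOF, a myoferlin of the membrane, averaged 423 ± 25.2 CPM in coculture and 492 ± 14.1 CPM in monoculture (-0.22 ± 0.0438), both lower. With offsets TPM2 (0.06, adjusted p = 0.26996) and MYOF (-0.06, adjusted p = 0.193) were not called.

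Of 16 smooth muscle and pericyte genes 13 rose and 3 fell. DES, the intermediate filament of muscle, was at 122, 133, 125 and 122 CPM in coculture, against 72.5, 70.3, 70.9 and 74.7 CPM in monoculture (0.80 ± 0.0622), and SMTN, a contractile smooth muscle protein, averaged 103 ± 1.94 CPM in coculture and 68.6 ± 1.41 CPM in monoculture (0.58 ± 0.0532), both without overlap. MYH11, the smooth muscle myosin, averaged 42.9 ± 2.39 CPM in coculture and 57.8 ± 3.43 CPM in monoculture and fell (-0.42 ± 0.0835), as did MCAM (-0.46). Of 21 fibroblast and fibro-adipogenic genes 9 rose and 6 fell, or 6 and 8 with library totals alone. PDGFRA, the receptor that marks fibro-adipogenic cells, averaged 60.1 ± 2.77 CPM in coculture and 66.2 ± 2.43 CPM in monoculture (-0.14 ± 0.0578, adjusted p = 0.0342). It had the opposite sign and no call with density and span offsets (0.04, adjusted p = 0.572), and its call was lost without any 1 of replicates 2, 3 and 4 of coculture and 1, 2 and 4 of monoculture (adjusted p = 0.0547 to 0.119). CLEC3B, which encodes tetranectin, averaged 8.46 ± 0.653 CPM in coculture and 4.84 ± 0.887 CPM in monoculture (0.79 ± 0.134), and the calcium-binding S100A4 fell (-0.47 ± 0.0737). The shorter marker sets summed above moved with the cultures, and that of fibroblasts was lower in coculture. The sum of the list of 21 fibroblast and fibro-adipogenic genes went the other way, with 50173 to 51379 CPM in coculture and 42721 to 45031 CPM in monoculture. That sum includes the collagen gene COL1A1, whose rise in mean CPM, given above, is about as large as the rise of the sum. The shorter set does not hold COL1A1. The part of these levels in the results was not tested.

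Genes of basic cell functions changed by small amounts. Of 68 nuclear genes of the respiratory chain 33 rose and 10 fell, with 6 rises of at least 0.5 and 0 with density and span offsets. CYC1, the cytochrome of complex III, averaged 107 ± 5.604 CPM in coculture and 70.4 ± 3.18 CPM in monoculture (0.61 ± 0.0473, or 0.37 with offsets). Of 13 mitochondrially encoded genes 0 rose and 10 fell, and ATP8, a subunit of ATP synthase, averaged 196 ± 18.2 CPM in coculture and 369 ± 12.3 CPM in monoculture (-0.92 ± 0.0765). Of 82 ribosomal protein genes 39 rose and 18 fell, a direction that depends on the scaling, with 21 and 24 for library totals alone and 29 and 19 with density and span offsets. Of 37 ribosome biogenesis genes 20 rose and 6 fell, or 16 and 10 with library totals alone, and of 20 aminoacyl-tRNA synthetases 10 rose and 4 fell. Of 29 proteasome genes 14 rose and 7 fell, or 9 and 6 with density and span offsets.

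Lysosome and redox genes were called in both directions, as genes in general were. Of 48 lysosome and autophagy genes 14 rose and 18 fell, beside 30.3% and 28.7% of all genes, or 9 and 15 with density and span offsets. CTSS, a lysosomal protease, averaged 18.1 ± 0.715 CPM in coculture and 25.8 ± 1.24 CPM in monoculture (-0.51 ± 0.0693). Of 30 genes of the NRF2 and metal response 11 rose and 11 fell. NQO1, a quinone reductase and classic NRF2 target, was at 85.2, 99.7, 83.98 and 84.5 CPM in coculture, against 151, 168, 149 and 171 CPM in monoculture. Replicate 2 was the highest coculture library and still below each monoculture library (-0.85 ± 0.08597). The factor NFE2L2 fell (-0.45 ± 0.04799), while the metallothionein MT2A averaged 10.2 ± 0.483 CPM in coculture and 5.27 ± 1.102 CPM in monoculture (0.96 ± 0.251) and the ferritin chain FTL averaged 1149 ± 54.99 CPM in coculture and 837 ± 68.98 CPM in monoculture (0.46 ± 0.0569, or 0.21 with offsets).

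Retinoic acid and adhesion genes complete the lists. Of 27 genes that handle retinoic acid, glucocorticoid and prostaglandin, 8 rose and 9 fell. CYP26B1, which breaks down retinoic acid, was at 4.38, 3.501, 6.04 and 4.35 CPM in coculture, against 11.1, 12.3, 11.4 and 11.03 CPM in monoculture (-1.40 ± 0.163), ALDH1A1, which makes it, averaged 336 ± 8.91 CPM in coculture and 499 ± 21.4 CPM in monoculture (-0.57 ± 0.0469), and RBP4, a retinol carrier, averaged 184 ± 11.5 CPM in coculture and 115 ± 7.14 CPM in monoculture (0.67 ± 0.0612). Of 40 actin and integrin genes 20 rose and 9 fell. The focal adhesion protein ZYX averaged 1019.9 ± 34.7 CPM in coculture and 691 ± 20.7 CPM in monoculture (0.56 ± 0.0403) and the fibronectin receptor chain ITGA5 averaged 2147 ± 68.8 CPM in coculture and 1572 ± 25.3 CPM in monoculture (0.45 ± 0.0419), whereas the caveolar CAV2 averaged 122 ± 5.16 CPM in coculture and 233 ± 19.3 CPM in monoculture (-0.93 ± 0.0568) and the integrin chain ITGAV fell (-0.45, or -0.26 with offsets).

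The remaining genes of largest change belong to no list. GCA, the calcium-binding grancalcin, was at 5.34, 5.47, 5.22 and 4.35 CPM in coculture, against 18.4, 20.99, 16.2 and 17.6 CPM in monoculture. It showed the largest fall among the genes that the naming rule takes, with no overlap (-1.83 ± 0.112, adjusted p = 1.48e-13). PDE1B, a calcium-dependent phosphodiesterase, was at 11.6, 10.99, 11.998 and 10.3 CPM in coculture, against 4.47, 4.34, 4.91 and 4.51 CPM in monoculture, higher in each coculture library (1.29 ± 0.119). CASQ2, a calcium-binding protein of the sarcoplasmic reticulum, was at 2.94, 2.91, 1.39 and 2.21 CPM in coculture, against 5.84, 5.14, 5.59 and 5.098 CPM in monoculture, without overlap (-1.11 ± 0.178). POLM, a DNA polymerase of end joining, was at 6.36, 6.62, 5.55 and 7.99 CPM in coculture, against 3.42, 1.89, 3.53 and 2.4998 CPM in monoculture (1.25 ± 0.148), APOA1, a lipoprotein component, at 5.64, 7.54, 4.57 and 5.78 CPM in coculture, against 2.67, 2.34, 3.798 and 2.84 CPM in monoculture (1.07 ± 0.163), and the sorting receptor SORCS2 at 15.5, 13.4, 14.8 and 14.4 CPM in coculture, against 8.63, 7.68, 7.23 and 6.03 CPM in monoculture (0.97 ± 0.109). For these 3 genes the cultures did not overlap either.

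The effect in proliferation was then set against the effect at the later times with a test of the difference for the 5 most raised and 5 most lowered genes of the naming rule. The 24 h and 72 h libraries of coculture lie partly or wholly on another lane, and monoculture at those times carries another code in the labels, so time cannot be told apart from these. The 5 lowered genes, GCA, SCD, ASPN, CCNG2 and HMGCS1, each differed from both later times. The effect on HMGCS1 was lower in proliferation than at 24 h by a log2 difference of -1.54 ± 0.0725 and than at 72 h by -1.54 ± 0.0793, and that on SCD by -1.52 ± 0.148 and -2.23 ± 0.183 (SE). For SCD the effect at 72 h had the opposite sign (0.61).

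The raised genes did not all behave alike. The effect on PDE1B was higher in proliferation than at either later time, by 1.16 ± 0.165 and 1.02 ± 0.185, and that on DHX58 was higher than at 24 h by 0.65 ± 0.263 (adjusted p = 0.0407). The effects on MX1, IFITM3 (ENSBTAG00000019018) and ADAMTS9 did not differ detectably from those at 24 h, with differences of -0.11 ± 0.406, 0.20 ± 0.270 and -0.28 ± 0.248, and those on MX1, the same IFITM3 copy, ADAMTS9 and DHX58 were lower than at 72 h, by -1.65 ± 0.384, -1.05 ± 0.258, -1.32 ± 0.229 and -1.08 ± 0.272. Of the 1339 genes called with a size of at least 0.5 in proliferation, 871 or 65.0% differed from both later times, beside 42.4% of all genes. These genes were chosen for their size in proliferation, which favours a difference from the later times. Of them 245 were called with the same sign at 24 h and 114 with the opposite sign. At 72 h, 330 were called with the same sign and 342 with the opposite sign.

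In the authors' deposited table for proliferation, 6827 genes have an adjusted p under 0.05, 3443 of them higher and 3384 lower. Of these, 6658 were also called by edgeR here, all with the same sign, which is 97.5% of the calls in the authors' deposited table and 94.6% of the edgeR calls.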

How the data were processed

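Each library was built from 400 ng of total RNA, per the labels' protocols. The authors deposited a table of counts, whole numbers of reads per gene and library. The submitters' processing notes list FastQC, STAR, RSEM and DESeq2, with no versions, so the counts may be rounded RSEM estimates. Strand use in counting and the genome build are not given in the sources used here. The authors' deposited table for proliferation, per the file headers, holds log2 fold changes, p-values and adjusted p-values of their own model, used here for 1 comparison of calls. Of 36 library columns in the count table, 12 match no label and stayed out.

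Tests were run in edgeR 4.0.16 under R 4.3.3. TMM factors set the scale. The model had a mean for each of 6 groups over 24 libraries, with 18 residual degrees of freedom, and quasi-likelihood F tests were adjusted by Benjamini-Hochberg over 11937 genes. The SE divides the absolute log2 fold change by the root of F. The procedure was tested on simulated data. No replicate pair had counts alike within sampling noise. Symbols come from the authors' table, where 893 genes have none and 140 symbols are shared. The genes named are the 15 largest rises and 15 largest falls among called, non-overlapping genes with a symbol and a mean of 5 CPM or more in the higher culture, up to 4 called members each way of each list (8 for lipid, interferon and replication lists), and some regulators and markers. A few genes that this rule takes are not reported here. The 36 lists hold 1228 symbols. Members, lists and rule were chosen with earlier results of these data known. Alternatives were other scalings, filters and models, DESeq2 1.42.0 and each library left out. Offsets that remove each library's trend (natural splines) of log2 level on gene density and span, and the removal of 2 coculture libraries, were added after seeing the data. Promoter sequence was not used here.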

Additional observations from a re-analysis of the deposited data

Results flagged for a closer look

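The 354 groups of 4 libraries examined were formed by the named genes and, in a few cases, by count shares or totals of the libraries. In 15 of them, 1 library stood apart from the other 3 by Dixon's criterion, which chance meets in about 1 in 20 groups. On the high side in coculture were replicate 4 for ADAMTS9 at 7.99 CPM, against 5.96 to 6.18 CPM in the other 3, and replicate 3 for IFITM3 (ENSBTAG00000019018) at 19.3 CPM, LAMA3 at 7.92 CPM and SPRED1 at 17.2 CPM. Replicate 2 was high for NQO1 at 99.7 CPM. On the low side in coculture were replicate 1 for INSIG2 at 12.8 CPM and BIRC3 at 24.6 CPM, and replicate 4 for CDC20 at 35.9 CPM, GAPDH at 2283 CPM and FADS1 at 12.2 CPM. In monoculture, replicate 1 was high for FGF2 at 55.1 CPM and low for BCL3 at 13.04 CPM and ELOVL6 at 18.8 CPM, and replicate 2 was high for CXCL5 at 202 CPM and SLC16A1 at 184.8 CPM. Each of these libraries lay on the same side of the other culture as its group.

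The coculture effect differed between times in 17 of 20 tests of the difference, over 10 genes. Against 24 h the log2 difference was 0.65 for DHX58, 1.16 for PDE1B, -1.54 for HMGCS1, -1.29 for CCNG2, -1.59 for ASPN, -1.52 for SCD and -1.44 for GCA. Against 72 h it was -1.65 for MX1, -1.05 for IFITM3 (ENSBTAG00000019018), -1.32 for ADAMTS9, -1.08 for DHX58, 1.02 for PDE1B, -1.54 for HMGCS1, -1.18 for CCNG2, -1.01 for ASPN, -2.23 for SCD and -1.37 for GCA. The genes were chosen for their size in proliferation, which favours a difference of that sign, and lane and label code change with time.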

How the results depend on the processing

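The count of called genes was 7041 and ran from 6417 to 6817 with 1 library left out, the lowest without replicate 2 of coculture. With the replicate number as a block it was 7009. Same-numbered libraries did not deviate together (correlations of 0.0207, 0.0283, -0.0697 and -0.0809). Differently numbered pairs ran from -0.207 to 0.122, so these values cannot settle whether the numbers pair the samples. The block changed no call of a named gene. A test against a log2 fold change of 0.2 called 3730 genes, 1853 higher and 1877 lower. With library totals alone 318 genes, in place of 566, were higher by at least 0.5. Gene density and span offsets, added after seeing the data, left 5954 calls, of which 4925 are among the 7041, and gave the opposite sign for PDGFRA (0.0404) and COL8A1 (0.00746). By construction these offsets also remove any difference between cultures that follows density. The difference from 24 h was called in 7 of 10 genes and in 6 without replicate 3 of coculture, and that from 72 h in 10. The lower share of the 2 nuclear ribosomal RNA genes in coculture ran from -0.540 to -0.432 percentage points with 1 library left out, and without a monoculture library its exact permutation p was 0.0571. With genes of at least 5 CPM only, 7 cytokine genes in place of 11 were called lower, and 3 sarcomere genes in place of 5 higher. With proliferation libraries alone, 16 mitosis genes in place of 10 were lower. Without the coculture libraries of highest and lowest total, also chosen after seeing the data, 5765 genes were called. Of the list counts, 21 ribosomal protein genes in place of 39, 9 lysosome genes in place of 14 and 3 genes of cell cycle exit in place of 6 were then higher, and 4 replication genes in place of 7 and 3 Notch, Wnt and Hippo genes in place of 5 were lower. Low counts limit genes of a few CPM, and the filter on low counts removed 0 genes.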

Other observations

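Among genes of the machinery for making and removing proteins, the changes were small and of both signs. The nucleolar protein PES1 averaged 89.4 ± 2.09 CPM in coculture and 63.2 ± 1.505 CPM in monoculture (0.50 ± 0.0464) and RRP9, a component of the small nucleolar particle of ribosomal RNA processing, averaged 29.2 ± 2.01 CPM in coculture and 20.4 ± 1.203 CPM in monoculture (0.52 ± 0.0773, or 0.31 with offsets; SD, n = 4 each, and SE after log2 fold changes). The ribosomal protein RPL28 rose (0.41, or 0.19 with offsets) and RPL22 fell (-0.32, or -0.48 with offsets). The proteasome ATPases PSMC5 (0.29, or 0.15 with offsets) and PSMC6 (-0.42) moved in opposite directions, as did the complex I subunits NDUFS7 (0.63, or 0.38 with offsets) and NDUFS1 (-0.35, or -0.21 with offsets). Of 6 adipocyte genes 3 rose and 1 fell, or 1 and 0 with offsets for gene density and span, the fall was not called without replicate 2 of coculture or replicate 3 of monoculture, and CIDEA, a lipid droplet protein, averaged 7.31 ± 0.585 CPM in coculture and 4.98 ± 0.58999 CPM in monoculture (0.56 ± 0.114). Of 3 endothelial genes 1 rose and 1 fell. The rise was not called with library totals alone or without any 1 of replicates 1, 2 and 3 of coculture and 1, 2 and 4 of monoculture. FLT1, a VEGF receptor, fell (-0.31, or -0.17 with offsets). The single leukocyte gene in the table was not called.

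A few genes had a log2 fold change over 1 and were not called, and are named after their values were seen. IL6, a cytokine that signals through STAT3, was at 2.40, 2.05, 3.26 and 2.21 CPM in coculture, against 0.994, 1.20, 1.11 and 1.27 CPM in monoculture. These libraries do not overlap, and the fitted log2 fold change was 1.02 ± 0.587 (SE; edgeR adjusted p = 0.135). The 5.8S ribosomal RNA gene ENSBTAG00000048608 on chromosome 27 was at 33.5, 27.1, 114.1 and 16.99 CPM in coculture, against 10.4, 6.88, 7.02 and 5.05 CPM in monoculture (adjusted p = 0.111). ENSBTAG00000066082, annotated in the table as protein coding, spans that gene and was at 1665, 983, 3434 and 854 CPM in coculture, against 934, 752, 698 and 595 CPM in monoculture. In both, replicate 3 of coculture was the highest library.

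By chromosome, the median log2 fold change ran from -0.20 on chromosome 9 to 0.23 on chromosome 29.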
